A study of Homo sapiens with 4 samples.

Results

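Sub-population 3 was 1 of 19 cell clusters defined by the study when the single-cell RNA sequencing (scRNA-seq) profiles of 4 related lung adenocarcinoma lines were clustered together. It held 2664 of 24441 cells, and the plot of the study places it in the parental line PC9. Its members were taken as the deposited mean profile of that cluster, rescaled to a sum of 1000000, and were set against sub-populations 6, 4 and 5, the clusters high in the mitotic topoisomerase TOP2A in the other lines, and against sub-population 2, the other large PC9 cluster. PC9 is an established human lung adenocarcinoma line with a deletion in exon 19 of EGFR, and it carried a lentiviral reporter. PC9-BrM4, labelled BM4, descends from PC9 through repeated in vivo selection of brain metastases. C2 and R2 descend from PC9-BrM4 through further selection in mice given vehicle or the EGFR inhibitor osimertinib and were infected with an eGFP virus. All 4 lines were cultured for 3 days without drug, and 1 library was made from each, so no comparison has replicates and no test across samples was possible. Sub-population 6 is placed in PC9-BrM4 (1844 cells), 4 in C2 (2603 cells), 5 in R2 (2047 cells) and 2 in PC9 (2686 cells). The placement says where most cells of a cluster lie, because the tables hold no line for single cells and a cluster can include cells of another line. PC9-BrM4, C2 and R2 are selected populations, and C2 and R2 carry a further virus, so in the comparisons with PC9 line, selection and virus cannot be told apart.

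A cell that has copied its DNA builds up a shared group of transcripts as it passes through G2 into mitosis. This group includes the kinase CDK1 and its cyclins, the topoisomerase that untangles sister chromatids, and the proteins of kinetochore and spindle. Many of their promoters carry a cell cycle homology region (CHR), with the core TTTGAA, and CCAAT boxes that bind NF-Y. The other genes that mark this cluster, ALDH3A1 and AKR1B10, encode an aldehyde dehydrogenase and an aldo-keto reductase. Both detoxify reactive aldehydes and are known targets of the transcription factor NRF2, which is often active in lung cancer and binds an antioxidant response element (ARE) with the core TGACNNNGC.

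The 3 marker genes were higher in sub-population 3 than in any of the other 18 clusters. Values are given as CPM, the mean corrected UMIs (unique molecular identifiers, 1 per captured transcript) per 1000000 of the cluster's total. TOP2A, at chr17:40388525-40417896 on GRCh38, had 463 CPM in sub-population 3 (95% Poisson interval 457 to 470, from 19012 summed UMIs), against 309 CPM in 6, 348 CPM in 4 and 229 CPM in 5. ALDH3A1, at chr17:19737984-19748943, had 202.8 CPM in sub-population 3 (interval 198 to 207), against 34.9 CPM in 6, 13.3 CPM in 4 and 7.71 CPM in 5. AKR1B10, at chr7:134527567-134541412, had 966 CPM in sub-population 3 (interval 957 to 976), against 259 CPM in 6, 268 CPM in 4 and 112 CPM in 5. The intervals did not overlap those of 6, 4 and 5, but they cover counting error only, over corrected UMIs and with no replicate library.

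**Figure D1:**
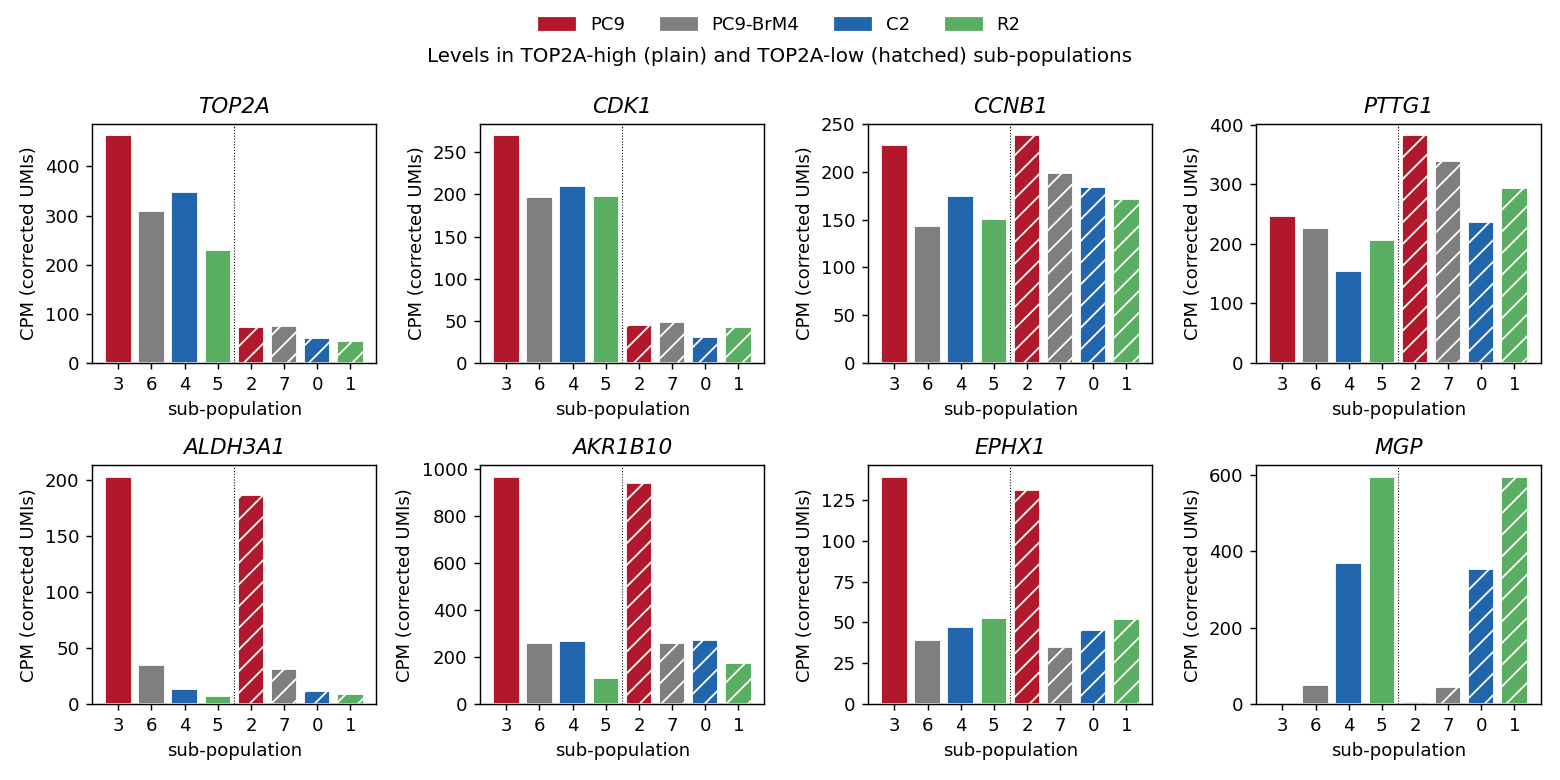
CPM from corrected UMIs (vertical axes, linear) of 8 genes in the TOP2A-high sub-populations 3, 6, 4 and 5 (plain bars) and in the TOP2A-low sub-populations 2, 7, 0 and 1 (hatched bars), coloured by line, with no error bars because each bar is 1 mean over cells. TOP2A and CDK1 separated plain from hatched bars, ALDH3A1, AKR1B10 and EPHX1 were high in both PC9 clusters, and MGP was close to 0 in both.

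The mitotic name was met only in part. Against sub-population 2, the other PC9 cluster, 31 of the 63 measured G2/M genes were called higher in 3, against 0.817% of all measured genes. Of the 63, 59 were above 0, but 4 were lower. Called means a difference of at least 1 in log2(CPM + 5), and measured a mean of at least 10 CPM over the compared clusters. TOP2A had 463 CPM in sub-population 3, against 72.5 CPM in 2. CDK1, the kinase that drives entry into mitosis, had 270.1 CPM in 3, against 45.2 CPM in 2. UBE2C, which loads ubiquitin on the substrates of the anaphase-promoting complex, had 526 CPM in 3, against 93.3 CPM in 2. All of these differed by more than 2 on the log2 scale in the corrected table. In mean counts derived from the uncorrected table, which also rise with spread between cells, the difference was 2.27 for CDK1 and 1.46 for TOP2A, but 0.78 for UBE2C, under the size of a call. Other lists of mitotic genes were mostly above 0. Of 32 measured mitotic kinesin and spindle genes, 31 were above 0 and 10 were called higher. Of 37 kinetochore and centromere genes, 36 were above 0 and 6 were called higher. Of 31 genes of the anaphase-promoting complex and mitotic kinases, 26 were above 0, with 10 called higher and 0 lower. Over all measured genes 77.4% were above 0. The 4 G2/M genes that were lower are also known for mitosis proper. PTTG1, or securin, which holds back separase until anaphase, had 247 CPM in 3, against 382 CPM in 2. CCNB2 had 51.2 CPM in 3, against 68.0 CPM in 2, and CDC20, the activator of the anaphase-promoting complex, had 122 CPM in 3, against 149 CPM in 2. CCNB1, the main mitotic cyclin, was nearly level, with 228 CPM in 3, against 238 CPM in 2. Because these 4 genes were not higher in 3, the cluster is called TOP2A-high below rather than mitotic, and sub-population 2 TOP2A-low.

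Over all genes, 7836 were measured in the comparison of 3 with 2. Of these, 64 were called higher (0.817%) and 1 lower (0.0128%). With a filter of 50 CPM, 34 of the 64 remained. The median difference of all measured genes was 0.15, so most genes lay slightly above 0. The rescaled difference is relative to the total, and mitochondrially encoded transcripts took 15.2% of the UMIs in 3, against 15.7% in 2. Ribosomal protein transcripts took 18.9% in 3, against 20.2% in 2. The part of these shares in the median was not tested. Of the 64 genes, 51 were called higher in the uncorrected table as well. Of the same 64, 31 were in the G2/M list and 12 in the histone list. The lower one was DTL, which targets the licensing factor CDT1 for destruction during S phase, with 21.1 CPM in 3, against 47.4 CPM in 2. Because these clusters were drawn from the same cells, the counts describe the split and are no test of it.

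In the corrected table the largest differences from sub-population 2 were in linker histones, which bind DNA between nucleosomes. HIST1H1D had 459 CPM in 3, against 24.6 CPM in 2, a difference of 3.97 on the log2(CPM + 5) scale. HIST1H1B had 331 CPM in 3, against 26.5 CPM in 2, and HIST1H1E had 245 CPM in 3, against 26.6 CPM in 2. HIST1H1C had 282 CPM in 3, against 35.1 CPM in 2. The core histone HIST1H4C was the most abundant of them, with 1615 CPM in 3, against 262 CPM in 2. In contrast, the variant histones H2AFZ, H3F3A and H3F3B, which cells make throughout the cycle, differed by less than 0.2. Replication-dependent histone mRNAs mostly lack the poly(A) tail on which 3′ libraries are primed, and their copies are near-identical in sequence, so their single values are uncertain. Among the other genes, the DNA helicase PIF1 had 36.2 CPM in 3, against 1.13 CPM in 2. FAM83D, a spindle protein, had 81.0 CPM in 3, against 8.90 CPM in 2. Both PIF1 and FAM83D were under 10 CPM in 2 and passed the filter through their level in 3. The order of these genes depended on the table, since in the uncorrected one FAM83D differed by 3.51 and PIF1 by 3.42, above HIST1H1C at 3.17 and HIST1H1D at 2.59.

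Of 18 measured histones, 12 were called higher in 3 against 2, with a median of 1.44, against 0.817% of all measured genes. Genes of the S phase list, which held none of these 12, set 3 apart from 2 less. Their median difference was 0.18 over 47 measured genes, against 0.15 over all genes, with 0 called higher and 1 lower. Of the 47, 37 were above 0, near the 77.4% of all measured genes, and 10 were below 0. Among those below 0, NASP, a histone chaperone, had 210.1 CPM in 3, against 259 CPM in 2, and CDCA7 had 46.0 CPM in 3, against 72.0 CPM in 2. Among those above 0, RRM2, a subunit of ribonucleotide reductase, had 98.2 CPM in 3, against 48.6 CPM in 2.

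Many promoters of the G2/M genes shared sequence elements, which belong to the listed genes whatever their level in sub-population 3. The windows below, read from RefSeq promoters on GRCh38.p14, are shown because PLK1, PIF1 and CDCA8 were among the genes high in 3 against 2, while CDC20 and CCNB1 were not. Capitals mark TTTGAA and CCAAT on either strand, so that ATTGG is CCAAT on the other one.
PLK1, chr16:23678809-23678868, plus strand: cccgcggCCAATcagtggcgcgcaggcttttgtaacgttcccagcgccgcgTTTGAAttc
PIF1, chr15:64825658-64825707, minus strand: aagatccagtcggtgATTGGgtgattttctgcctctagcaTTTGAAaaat
CDCA8, chr1:37692456-37692505, plus strand: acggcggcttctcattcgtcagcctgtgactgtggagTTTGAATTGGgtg
CDC20, chr1:43358871-43358935, plus strand: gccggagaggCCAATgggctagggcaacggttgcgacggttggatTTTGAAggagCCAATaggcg
CCNB1, chr5:69167050-69167104, plus strand: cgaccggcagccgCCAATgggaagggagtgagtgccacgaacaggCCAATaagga

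In PLK1 the CCAAT box began 73 bases and TTTGAA 29 bases before the start site. In PIF1 they began 45 and 20 bases before it. In CDCA8, the chromosomal passenger protein borealin, TTTGAA began 23 bases before the start and overlapped a CCAAT match at 18 bases. CDC20 had TTTGAA 65 bases before the start between 2 CCAAT boxes, and it was not higher in 3. CCNB1 had 2 CCAAT boxes and no TTTGAA in its window. Both strands were searched in 250 bases before and 50 bases after each start. Over the lists, TTTGAA occurred for 38 of the 55 G2/M genes with a promoter in the table, against 18.2% of all 27305 genes there. It occurred for 29 of the 43 genes called higher in 3 against 2 that had a promoter there, and for 3 of 36 S phase genes. The called genes and the G2/M list overlap, since 31 of the 64 called genes are in that list. CCAAT occurred for 42 of 55 G2/M genes and 26 of 36 S phase genes, against 39.7% of all genes. These matches describe letters in a window and say nothing of binding.

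The same split was present in the other lines. All 64 genes called higher in 3 against 2 were also above 0 in 6 against 7, 4 against 0 and 5 against 1, and 33 of them reached 1 in every line. HIST1H1C differed by 2.84 in PC9, against 2.34 in PC9-BrM4, 1.77 in C2 and 0.84 in R2. HIST1H4C differed by 2.60 in PC9, against 2.11 in PC9-BrM4, 1.84 in C2 and 1.77 in R2. The median over 63 G2/M genes was 0.99 in PC9, against 0.80 in PC9-BrM4, 0.98 in C2 and 0.98 in R2. PTTG1 was lower in the TOP2A-high cluster of every line, by 0.62 in PC9, against 0.57 in PC9-BrM4, 0.61 in C2 and 0.50 in R2. The genes were chosen for their difference in PC9, which favours PC9, and the differences between lines were not tested.

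**Figure D2:**
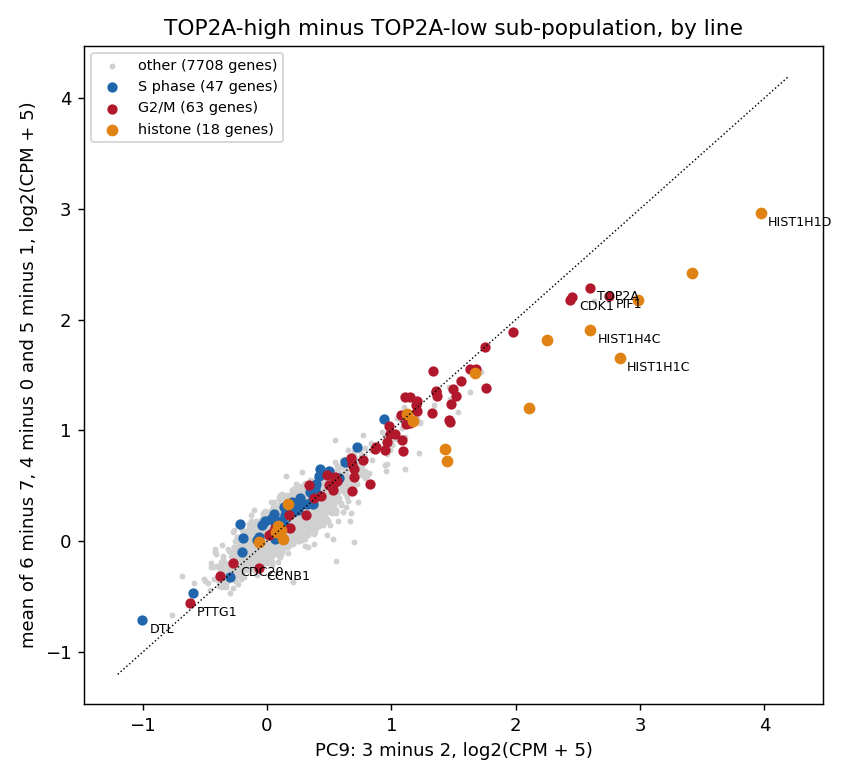
Difference in log2(CPM + 5) between the TOP2A-high and TOP2A-low sub-population of PC9 (3 minus 2, horizontal) and the mean of the same difference in the 3 other lines (vertical), for 7836 measured genes, coloured by gene list, with a dotted line of equality. The histones with the largest differences lie to the right of the line, where the PC9 difference is larger, most G2/M genes lie near it, and PTTG1, CDC20, CCNB1 and DTL lie below 0 on both axes.

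Several detoxifying enzymes were among the genes called higher in sub-population 3 than in the TOP2A-high clusters of the other lines. Some of these enzyme calls were lost in the uncorrected table, as given below. Of 7774 measured genes, 17 were at least 1 higher on the log2(CPM + 5) scale than in each of 6, 4 and 5 (0.219%), and 6 were at least 1 lower than in each (0.0772%). The filter is a mean that includes 3, so a gene such as MAP2 can pass it through its level in 3 alone. With a filter of 50 CPM, 9 of the 17 and 5 of the 6 remained. Without sub-population 6 the counts were 67 higher and 94 lower. Among the 17 were ALDH3A1, AKR1B10, ALPP, MAP2, FOS, EPHX1, ARID5B, S100P, ALCAM, AKR1C1 and PCDH7, followed by CYP1B1, AKR1C3, AGR2, GPX2 and ASPM. In 14 of the 17 the level in 6 lay between that in 3 and the mean of 4 and 5. Of the same 17, 14 were at least 1 higher in the other PC9 cluster than in each TOP2A-low cluster of another line. Most of the 17 were thus no trait of sub-population 3 alone. ASPM was the called gene nearest to the threshold, just over 1, and CREG1, with 26.8 CPM in 3, against 11.1 CPM in 6, 10.1 CPM in 4 and 10.6 CPM in 5, was just below it at 0.98. The median difference of all measured genes from the mean of 6, 4 and 5 was 0.15.

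**Figure D3:**
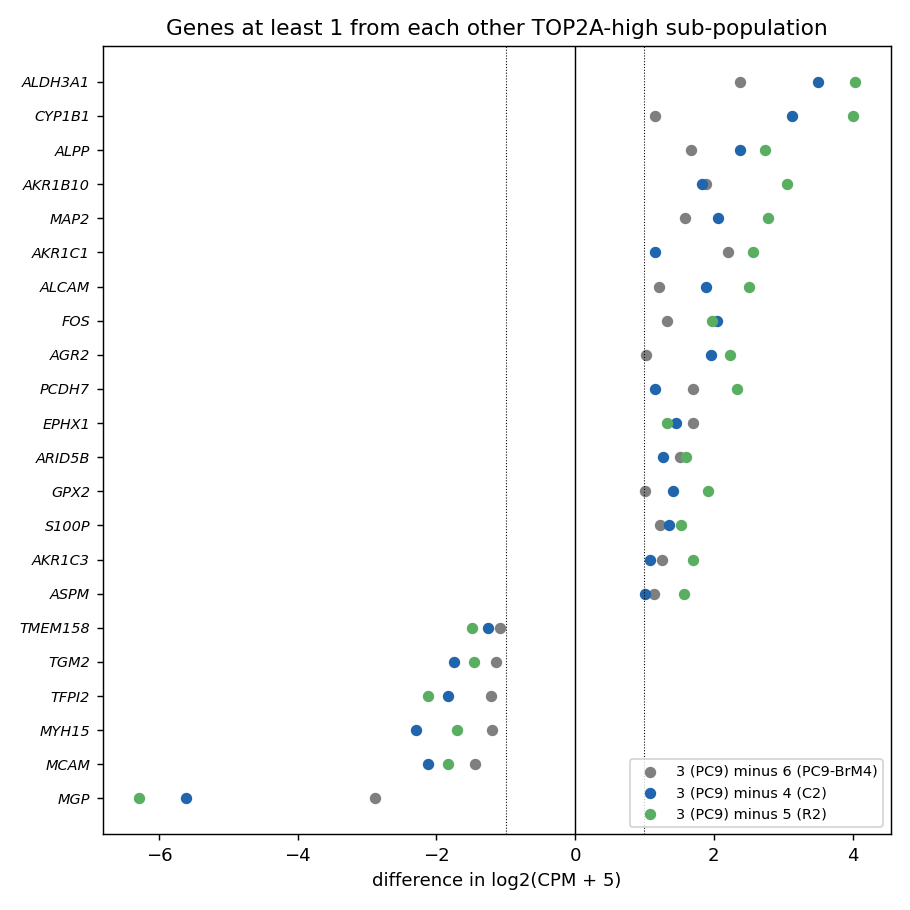
Difference in log2(CPM + 5) between sub-population 3 (PC9) and each of 6 (PC9-BrM4), 4 (C2) and 5 (R2), horizontal axis, for 22 genes at least 1 from all 3, 1 row per gene, with dotted lines at −1 and 1. ALDH3A1 was the highest and MGP the lowest, and for most genes the PC9-BrM4 point lay nearest to 0.

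ALDH3A1 differed by 2.38 from 6, 3.505 from 4 and 4.03 from 5. AKR1B10 differed by 1.88 from 6, 1.83 from 4 and 3.05 from 5. Of the 4 TOP2A-high clusters, 5 had the lowest level of both. AKR1C1, an aldo-keto reductase of steroids and lipid aldehydes, had 610 CPM in 3, against 129 CPM in 6, 272 CPM in 4 and 98.5 CPM in 5. AKR1C3, which makes active androgens and prostaglandin F, had 634 CPM in 3, against 264 CPM in 6, 296 CPM in 4 and 192 CPM in 5. Their close copy AKR1C2 behaved differently, with 250 CPM in 3, against 275 CPM in 6, 138 CPM in 4 and 56.2 CPM in 5. The AKR1C genes are near-identical, so reads may be split between them and each single value is uncertain. Enzymes of other families were high as well. EPHX1, the microsomal epoxide hydrolase, had 139 CPM in 3, against 39.4 CPM in 6, 47.4 CPM in 4 and 52.6 CPM in 5. CYP1B1, a cytochrome P450 of oestrogens and aromatic hydrocarbons, had 138 CPM in 3, against 59.5 CPM in 6, 11.3 CPM in 4 and 3.86 CPM in 5. GPX2, a glutathione peroxidase, had 188 CPM in 3, against 91.0 CPM in 6, 67.9 CPM in 4 and 46.1 CPM in 5. All of these genes had their highest value of the TOP2A-high clusters in PC9 except AKR1C2.

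The calls of 6 of the 17 depended on the table. In the uncorrected table the difference nearest to 0 was 0.35 for AKR1B10, 0.63 for AKR1C1, 0.38 for AKR1C3, 0.48 for CYP1B1, 0.49 for S100P and 0.98 for ARID5B, under the size of a call. It was 1.71 for ALDH3A1, 1.67 for EPHX1 and 1.73 for GPX2. AKR1B10 in the uncorrected table still differed from 6 by 1.97.

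The NRF2 target list as a whole was shifted. Of its 38 genes 37 were measured, and 35 of these were above the mean of 6, 4 and 5, against 5442 of 7774 over all genes. Their median difference was 0.73, against 0.15 over all genes. Of the 37, 6 were called higher (AKR1B10, AKR1C1, AKR1C3, ALDH3A1, GPX2 and EPHX1), against 0.219% of all measured genes, and 0 lower. ALDH3A1 and AKR1B10 are markers chosen for this cluster, so their calls are no separate evidence for the list. NQO1, a quinone reductase, had 858 CPM in 3, against 681 CPM in 6, 586 CPM in 4 and 525 CPM in 5. SLC7A11, the cystine importer, had 175 CPM in 3, against 96.0 CPM in 6, 133 CPM in 4 and 71.0 CPM in 5, and UGDH, which makes UDP-glucuronate, had 248 CPM in 3, against 149 CPM in 6, 91.8 CPM in 4 and 42.0 CPM in 5. In all 3 of these genes sub-population 3 was the highest of the TOP2A-high clusters. TXNRD1, thioredoxin reductase, was not highest in 3, with 1320 CPM, against 1197 CPM in 6, 1593 CPM in 4 and 810 CPM in 5. HMOX1, haem oxygenase, had 16.8 CPM in 3, against 15.4 CPM in 6, 19.9 CPM in 4 and 18.6 CPM in 5. The named NRF2 genes therefore did not share 1 size of difference.

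The smaller families differed among themselves. They are not separate from the NRF2 list, which also holds ALDH3A1, AKR1B10, AKR1C1, AKR1C3 and GPX2. The 9 measured aldehyde dehydrogenases were all above the mean of 6, 4 and 5, with a median of 0.63. The 7 measured aldo-keto reductases had a median of 0.92. Of these 7, 5 were above 0, a share close to the 70.0% of all measured genes above 0. Of the same 7, 3 were called higher, against 0.219% of all measured genes. The uncorrected table gave medians of 0.45 and 0.30. ALDH9A1 had 36.7 CPM in 3, against 22.4 CPM in 6, 19.7 CPM in 4 and 22.6 CPM in 5. Glutathione S-transferases and peroxidases did not follow, with a median of 0.11. GSTM3 had 122 CPM in 3, against 124 CPM in 6, 347 CPM in 4 and 408 CPM in 5.

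The ARE core was searched in the same promoters. It occurred for 9 of 26 NRF2 target genes with a promoter in the table, but also for 11 of 36 S phase and 14 of 55 G2/M genes, against 16.1% of all genes. Of the genes called higher in 3 against every line, 3 of 13 had it. GPX2 is shown because it was both called higher in 3 and carried a match, in capitals on the other strand, which began 122 bases before its start.
GPX2, chr14:64942846-64942880, minus strand: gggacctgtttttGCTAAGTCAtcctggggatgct

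The other genes higher in 3 had varied functions. ALPP, placental alkaline phosphatase, had 46.2 CPM in 3, against 11.1 CPM in 6, 4.89 CPM in 4 and 2.70 CPM in 5. MAP2, a neuronal microtubule protein, had 34.5 CPM in 3, against 8.20 CPM in 6, 4.50 CPM in 4 and 0.77 CPM in 5. Both genes were low in C2 and R2 and intermediate in PC9-BrM4. ALCAM, a cell adhesion molecule, had 71.1 CPM in 3, against 27.8 CPM in 6, 15.6 CPM in 4 and 8.45 CPM in 5. PCDH7, a protocadherin, had 77.9 CPM in 3, against 20.4 CPM in 6, 32.4 CPM in 4 and 11.4 CPM in 5. The calcium-binding protein S100P had 197 CPM in 3, against 81.5 CPM in 6, 73.9 CPM in 4 and 65.3 CPM in 5. FOS, an immediate-early transcription factor, had 43.2 CPM in 3, against 14.2 CPM in 6, 6.73 CPM in 4 and 7.26 CPM in 5. All 4 of these genes were highest in 3 among the TOP2A-high clusters.

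Of the lineage transcription factors, 14 were measured, 11 were above the mean of 6, 4 and 5, and 0 were called, with a median of 0.65. Over all measured genes 70.0% were above 0, so the count was near that share. FOXA1, a pioneer factor of airway epithelium, had 33.6 CPM in 3, against 25.2 CPM in 6, 9.23 CPM in 4 and 7.30 CPM in 5. SOX4 had 41.2 CPM in 3, against 36.9 CPM in 6, 8.65 CPM in 4 and 5.69 CPM in 5. ELF3, an epithelial ETS factor, had 107 CPM in 3, against 65.3 CPM in 6, 46.5 CPM in 4 and 40.8 CPM in 5. For FOXA1 and SOX4 the level in 3 was nearer to that in 6 than to those in 4 and 5.

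The 6 genes lower in 3 were MGP, MCAM, TFPI2, MYH15, TGM2 and TMEM158. MGP, matrix Gla protein, at chr12:14880864-14885857, was nearly absent, with 2.66 CPM in 3 from 109 UMIs in 2664 cells (interval 2.2 to 3.2), against 51.6 CPM in 6, 368 CPM in 4 and 595 CPM in 5. It had its lowest level of the 19 clusters in 3. TFPI2, a serine protease inhibitor of the matrix, had 105 CPM in 3, against 250.5 CPM in 6, 386 CPM in 4 and 474 CPM in 5. TGM2, tissue transglutaminase, had 75.0 CPM in 3, against 172 CPM in 6, 264 CPM in 4 and 215 CPM in 5, and MCAM, an adhesion molecule, had 4.26 CPM in 3, against 20.2 CPM in 6, 35.5 CPM in 4 and 28.1 CPM in 5. For all 6 genes the level in 6 lay between that in 3 and the mean of 4 and 5. In the uncorrected table the difference nearest to 0 was −0.72 for MYH15 and −0.67 for TGM2, under the size of a call, and −2.02 for MGP.

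Within the TOP2A-high clusters, G2/M transcripts themselves were more abundant in 3. They took 0.995% of its UMIs, against 0.733% in 6, 0.751% in 4 and 0.656% in 5. Of the 63 genes, 62 were above the mean of the other lines, the exception being TUBB4B, with a median of 0.52, but 0 were called. CENPF, a kinetochore protein, had 651 CPM in 3, against 330 CPM in 6, 315 CPM in 4 and 200 CPM in 5. ASPM, which holds spindle poles, had 189 CPM in 3, against 82.9 CPM in 6, 91.9 CPM in 4 and 60.5 CPM in 5. ASPM was also the only one of the 17 called genes that was called against 2. KIF14, a kinesin of cytokinesis, had 81.3 CPM in 3, against 43.2 CPM in 6, 42.4 CPM in 4 and 27.2 CPM in 5. AURKB did not follow, with 88.8 CPM in 3, against 69.8 CPM in 6, 88.4 CPM in 4 and 110.3 CPM in 5. Of 47 S phase genes 35 were above the mean of the other lines, with a median of 0.27 against 0.15 over all genes and 0 called, and the uncorrected table gave 0.14. TYMS, the thymidylate synthase, went against its list with 113 CPM in 3, against 163 CPM in 6, 170.5 CPM in 4 and 184 CPM in 5. How cells are spread over the cycle within each cluster was not tested.

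Against sub-population 6 alone, the cluster of the nearest line, 37 of 7920 measured genes were called higher (0.467%) and 8 lower (0.101%), with a median of 0.10 over all. Among these were all 23 genes called against every line. ALDH1A1, a retinaldehyde dehydrogenase, had 35.5 CPM in 3 (interval 33.7 to 37.3), against 2.53 CPM in 6, 0.37 CPM in 4 and 0.26 CPM in 5. It was under 10 CPM on average over the 4 clusters and so was not measured in the comparison with every line. BST2, an interferon-induced membrane protein, had 26.6 CPM in 3, against 3.65 CPM in 6, 125 CPM in 4 and 149 CPM in 5. DIO2, the deiodinase that activates thyroid hormone, had 149 CPM in 3, against 37.7 CPM in 6, 108 CPM in 4 and 65.0 CPM in 5. S100A9, a calcium-binding alarmin, had 1013 CPM in 3, against 359 CPM in 6, 1092 CPM in 4 and 757 CPM in 5. For BST2, DIO2 and S100A9 sub-population 6 was the lowest of the 4 clusters. For BST2 the level in 3 was also well below those in 4 and 5. ALDH1A1 and BST2 were under 10 CPM in 6 and passed the filter of this comparison through their level in 3. FN1, fibronectin, had 37.2 CPM in 3, against 208 CPM in 6, 12.5 CPM in 4 and 9.77 CPM in 5. OLFML3, a secreted matrix protein, had 101 CPM in 3, against 230 CPM in 6, 80.1 CPM in 4 and 109 CPM in 5. Of the 8 genes lower in 3 than in 6, FN1 and OLFML3 were the ones with their highest level in 6.

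Sub-populations 4 and 5 lay further away. Against 4, 95 of 7943 measured genes were called higher in 3 (1.2%) and 131 lower (1.65%). Against 5, 349 of 7906 were called higher (4.41%) and 143 lower (1.81%). Differences from 5 rose with transcript length across 7657 genes (Spearman rho 0.42, genes not being independent), against 0.01 for 4 and −0.01 for 6. For the difference from the mean of 6, 4 and 5 this rho was 0.23, and for that from 2 it was 0.19. Spearman rho of CPM over the 7774 genes was 0.98 between 3 and 2, 0.98 with 6, 0.93 with 4 and 0.89 with 5. Mitochondrially encoded transcripts took 15.2% of UMIs in 3, against 17.2% in 6, 19.5% in 4 and 15.96% in 5, and ribosomal protein transcripts 18.9% in 3, against 20.4% in 6, 16.8% in 4 and 20.8% in 5. Their part in the differences was not tested.

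In the corrected table EGFR, its ligand AREG and most of the genes that the study names had lower levels in 3 than in 4 and 5. EGFR, the mutated driver, had 185 CPM in 3, against 299 CPM in 6, 513 CPM in 4 and 328 CPM in 5. AREG, amphiregulin, had 27.9 CPM in 3, against 42.7 CPM in 6, 132 CPM in 4 and 122 CPM in 5. Neither was called against 6, and in the uncorrected table EGFR was 0.30 higher in 3 than in 6. The median of the EGFR family list was −0.84 against the mean of 6, 4 and 5, but −0.11 in the uncorrected table. Against 5 it was −0.81, but 0.061 in the uncorrected table. Of 11 measured genes that the study names, 2 were above the mean of 6, 4 and 5, and 0 were called. Their median was −0.58, or −0.11 in the uncorrected table. PRNP, the prion protein, had 39.8 CPM in 3, against 71.1 CPM in 6, 158 CPM in 4 and 139 CPM in 5. FOSL1 had 43.4 CPM in 3, against 62.8 CPM in 6, 101 CPM in 4 and 107 CPM in 5, while RHOA had 143 CPM in 3, against 142 CPM in 6, 148 CPM in 4 and 134 CPM in 5. RHOA thus lay between 134 and 148 CPM in all 4 clusters. The study chose some of these genes, such as PRNP and FOSL1, on these samples, and its MetRes signature of 255 genes too. The direction of those is therefore no independent evidence. RHOA was taken up by the study for its known role downstream of integrins. The signature had a median of −0.56 against 4, −0.72 against 5 and 0.05 against 6. In the comparison with 6, 136 of 232 measured genes were above 0, fewer than the 71.1% of all genes, whose median was 0.10.

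Mesenchymal genes were mixed. Of 9 measured, 3 were above the mean of the other lines and 0 were called against every line, with a median of −0.61, or −0.33 in the uncorrected table. Against 4, 2 were called higher and 4 lower, beside 1.2% and 1.65% of all measured genes. Against 5, 2 were called higher and 3 lower, beside 4.41% and 1.81%. S100A4 had 8.38 CPM in 3, against 18.6 CPM in 6, 177 CPM in 4 and 225 CPM in 5, and AXL, a receptor kinase, had 1.92 CPM in 3, against 6.22 CPM in 6, 28.6 CPM in 4 and 38.7 CPM in 5. LCP1, an actin bundler, did not follow the list, with 39.7 CPM in 3, against 72.8 CPM in 6, 2.05 CPM in 4 and 1.83 CPM in 5.

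**Figure D4:**
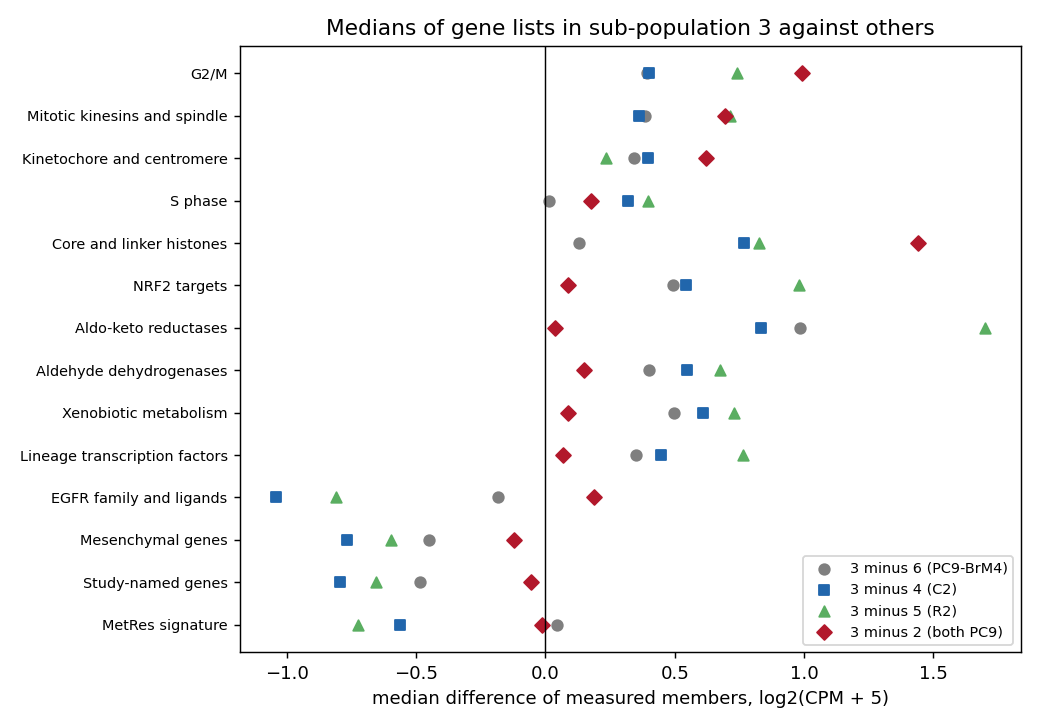
Median difference in log2(CPM + 5) of the measured members of 14 gene lists (rows) between sub-population 3 (PC9) and 6 (PC9-BrM4), 4 (C2), 5 (R2) and 2 (PC9). Detoxification lists lay to the right against the other lines and near 0 against 2, while G2/M genes and histones lay furthest right against 2.

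The line difference was carried by both PC9 clusters. Sub-population 2, set against 0, 1 and 7, the TOP2A-low clusters of the other lines, shares no cells with the comparison of 3 with 6, 4 and 5. Across 7774 genes Pearson's r between the 2 sets of differences was 0.96, where genes are not independent and the clusters of a line come from 1 library. Of the 17 genes higher in 3, 14 were at least 1 higher in 2 than in each of 7, 0 and 1, and 2 of the 6 lower genes were at least 1 lower. ALDH3A1 differed by 3.31 on average in 3 and by 3.21 in 2, and AKR1B10 by 2.26 in 3 and 2.01 in 2. HIST1H1B differed by 1.58 in 3 and by 0.58 in 2. Within PC9 the NRF2 targets had a median of 0.09 in 3 against 2, under the 0.15 of all genes.

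**Figure D5:**
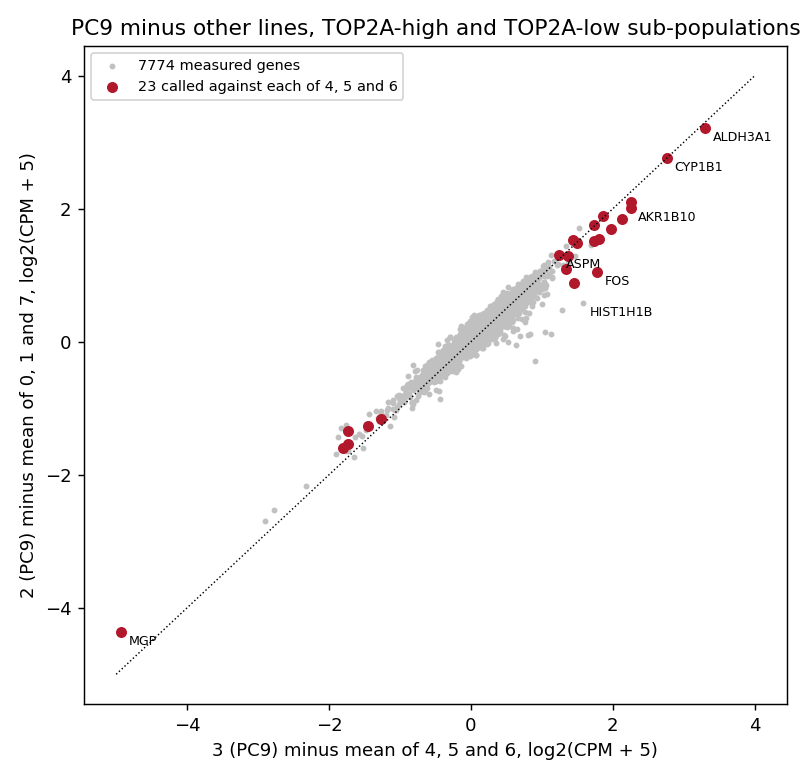
Mean difference in log2(CPM + 5) of sub-population 3 (PC9) from 6, 4 and 5 (horizontal) and of sub-population 2 (PC9) from 7, 0 and 1 (vertical) for 7774 measured genes, with the 23 called genes in red and a dotted line of equality. Points follow the line from MGP to ALDH3A1, and HIST1H1B and FOS lie to its right.

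Markers of some other cell types were close to 0 in 3, while those of others were not. Over 7 alveolar type 2 markers in the table the sum was 5.16 CPM in 3, against 3.94 CPM in 6, 5.18 CPM in 4 and 6.33 CPM in 5. The sum of 2 fibroblast markers was 2.53 CPM in 3, that of 4 endothelial markers 3.36 CPM, and the 1 erythroid marker had 0.097 CPM. None of these 4 lists had a gene at 10 CPM in 3. Of 9 secretory airway markers, 6 reached 10 CPM in 3, and their list summed to 709 CPM in 3, against 346 CPM in 6, 1139 CPM in 4 and 1134 CPM in 5. LCN2, lipocalin 2, made part of this with 155 CPM in 3, against 67.2 CPM in 6, 443 CPM in 4 and 487 CPM in 5. Sub-population 3 thus lay above 6 and below 4 and 5 in this list. The neuroendocrine list summed to 414 CPM in 3, against 300.2 CPM in 6, 488 CPM in 4 and 381 CPM in 5, with only UCHL1 of its 6 genes at 10 CPM. The alveolar type 1 list summed to 294 CPM in 3, against 267 CPM in 6, 353 CPM in 4 and 338 CPM in 5, with CAV1, RTKN2 and EMP2 at 10 CPM. The remaining lists were low and each rested on 1 or 2 genes at 10 CPM. The neural and glial list, with MBP, summed to 55.0 CPM in 3, against 88.1 CPM in 6, 69.0 CPM in 4 and 51.7 CPM in 5. The basal airway list, with KRT15 and S100A2, summed to 47.8 CPM in 3, against 49.3 CPM in 6, 66.5 CPM in 4 and 69.8 CPM in 5. The leukocyte list, with CD68, summed to 34.9 CPM in 3, against 26.6 CPM in 6, 68.2 CPM in 4 and 76.0 CPM in 5, and the ciliated list, with CAPS, to 33.7 CPM in 3, against 16.8 CPM in 6, 27.0 CPM in 4 and 29.5 CPM in 5. The sums cover all listed genes of the table, and their part in the differences was not tested.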

How the data were processed

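According to the study's methods, 10x 3′ libraries of 4 lines were aligned to hg38 with Cell Ranger and normalised in Seurat 3 with sctransform, with mitochondrial percentage as a covariate, and the cells were clustered together. The authors deposited 2 tables of means per sub-population. The first holds mean corrected UMI counts per cell for 19973 genes. The second holds, as deposited, the mean of e to the power of the uncorrected count, minus 1, for 21158 genes, with 140 overflowed values in 20 genes left out. Mean counts were derived from it as if counts were Poisson, and rescaled in the same way. Cell numbers were recovered as the whole number that makes every corrected sum whole within 0.001. Corrected totals were 15409 UMIs per cell in sub-population 3, 15006 in 6, 14611 in 4, 15200 in 5 and 14769 in 2. Raw depth, barcodes and doublets were not analysed here.

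Columns were rescaled to a sum of 1000000 (CPM) and compared as log2(CPM + 5), with a filter of 10 CPM and a call at 1. With 1 library a line there was no test. Intervals are 95% exact Poisson intervals and cover counting error only. The calling step alone was tested on simulated data, which have no replicate error. Genes named are the 3 markers, the 12 largest and smallest calls against every line and the 10 largest and smallest against 6 and against 2 with the same direction in both tables, up to 4 leading members of a described list and genes the study names. CCNB1, CCNB2, CDC20, CDCA8, CDCA7, NASP, AGR2, AURKB, LCN2, S100A9 and others that fell outside were chosen after their values were seen. The members and lists were chosen with earlier results of these data known. Positions came from GENCODE 44 on GRCh38 and promoters from RefSeq on GRCh38.p14. Python 3 with pandas, numpy and scipy was used. Alternatives were the uncorrected table, a pseudocount of 1 or 20, a filter of 50 CPM or no filter, a call at 0.5, no rescaling, centring on the median, leaving out each compared column and a rule on their mean. Some genes that met these rules are not reported here.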

Additional observations from a re-analysis of the deposited data

How the results depend on the processing

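Counts moved with most settings, and a gene at the edge of a call should be read with that in mind. Against each of 6, 4 and 5 (17 higher and 6 lower as reported), the uncorrected table gave 84 and 10, of which 11 and 4 were among those reported; a pseudocount of 20 gave 7 and 3, a pseudocount of 1 gave 11 lower, a filter of 50 CPM gave 9 higher, a size of 0.5 gave 148 and 36, and centring gave 11 higher. Without sub-population 6 the counts were 67 and 94, and by the mean of 6, 4 and 5 they were 58 and 37. Against 6 alone (37 and 8), the uncorrected table gave 154 and 106, a pseudocount of 1 gave 70 and 16, a pseudocount of 20 gave 14 and 5, a filter of 50 CPM gave 16 and 4, a size of 0.5 gave 377 and 76, and centring gave 23 higher. Against 2 (64 and 1), the uncorrected table gave 151 and 113, a pseudocount of 20 gave 34 and 0, a filter of 50 CPM gave 34 and 0, a size of 0.5 gave 309 and 7, and values not rescaled gave 0 lower. The same contrast gave 36 and 0 in PC9-BrM4, 68 and 0 in C2 and 58 and 0 in R2. The cause of the larger counts in the uncorrected table was not tested.

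None of the marker genes and leading called genes, tried under the uncorrected table, both pseudocounts, no rescaling and centring, changed direction in the comparison that named it. The leading called genes were chosen for the same direction in both tables, so none could change in the uncorrected one. A pseudocount cannot change the sign of a difference. Omitting the rescaling, or centring, shifted these genes by less than the size of a call. The unchanged directions are therefore no test of the calls. EGFR, which was not called against 6, was 0.30 higher in 3 in the uncorrected table. Medians of some lists changed sign. In the uncorrected table these were, against 6, EGFR family 0.17, genes named by the study 0.045, MAPK output 0.086 and S100 and annexins 0.089, the last 0.059 against every line. Against 2 they were NRF2 targets −0.075, aldo-keto reductases −0.15, aldehyde dehydrogenases −0.035, xenobiotic metabolism −0.13 and MetRes 0.086. Not rescaled, S100 and annexins were at 0.026 against every line and 0.00090 against 6, and against 2 glutathione enzymes were at 0.057, genes named by the study at 0.0027 and MetRes at 0.044. Centred, glutathione enzymes were at −0.029 against every line, S phase genes at −0.088 and MetRes at −0.054 against 6, and against 2 NRF2 targets were at −0.066, aldo-keto reductases −0.11, aldehyde dehydrogenases −0.0038, xenobiotic metabolism −0.065, lineage factors −0.085 and MAPK output −0.023. No paired analysis was possible because each line had 1 library and no test was made.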
